A study of Mus musculus with 6 samples.

Results

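The insulin-like growth factor (IGF) axis was followed here through 10 genes, chosen by name with earlier results of these data known. They were the ligand genes Igf1 and Igf2, the noncoding neighbour H19, the receptors Igf1r and Igf2r, and the binding proteins Igfbp2, Igfbp3, Igfbp4, Igfbp5 and Igfbp7. All 10 were among 24973 probe sets, 24015 of them with a gene symbol, and all 10 were bright enough to be among the 12028 genes tested. The tissues came from C57Bl/6 mouse embryos at embryonic day 11.5, with no genetic change or treatment named in the labels. Dorsal tissue lay between the notochord and the top of the aorta, and ventral tissue lay below the vessel, where the series places a niche for blood stem cells. Each tissue was profiled on 3 arrays, numbered 1 to 3, after laser microdissection of 20 μm cryosections and amplification of 200 to 1000 pg of total RNA. How many embryos went into 1 array is not given in the sources used here, so p-values measure the spread between these samples. Values are log2 RMA levels, on which a difference of 1 is a doubling of signal, and the number of arrays limits their precision.

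IGF1 and IGF2 are secreted peptides related to insulin, and both signal through the tyrosine kinase receptor IGF1R, which drives growth and survival through insulin receptor substrates, PI3 kinase and AKT. IGF2R, the cation-independent mannose-6-phosphate receptor, does not signal in this way but carries IGF2 to lysosomes. IGF binding proteins hold the ligands in the matrix and in body fluids, and proteases such as PAPP-A and ADAM12 cleave some of them and release the ligand. Igf2 and H19 are oppositely imprinted neighbours, Igf2 expressed from the paternal and H19 from the maternal allele, and both are highly active in embryonic mesoderm.

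The levels of 5 members were higher in ventral tissue in all 3 same-numbered pairs: Igf1, Igf2r, Igfbp3, Igfbp4 and Igfbp5. In 1 member, Igf1r, all 3 pairs were lower in ventral tissue, by small amounts. Over the 12028 genes tested, all 3 pairs were higher in ventral tissue for 1846 and lower for 2031. Igf2, H19, Igf1r, Igfbp2 and Igfbp7 lay within 0.18 of 0 on the log2 scale. None of the 10 passed an adjusted p of 0.05 in the comparison of ventral with dorsal tissue (limma with the replicate number as a block, Benjamini-Hochberg over all 12028 genes), where 62 genes, or 0.515%, passed. At an unadjusted p of 0.05, 4 members were higher in ventral tissue (Igf1, Igf2r, Igfbp3 and Igfbp5) and 0 higher in dorsal tissue, against 5.60% and 5.14% of all genes tested (10.7% in either direction). The ventral arrays lay wholly above the dorsal arrays for 4 members (Igf2r, Igfbp3, Igfbp4 and Igfbp5), against 7.50% of all genes, and wholly below them for 0 members, against 7.88%. The median difference over the 10 members was 0.22, beside −0.01 over all genes tested. Because the members were chosen with earlier results of these data known, these counts and medians are descriptions. In pieces of bulk tissue, fewer cells of a type and less RNA per cell cannot be told apart.

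**Figure D1:**
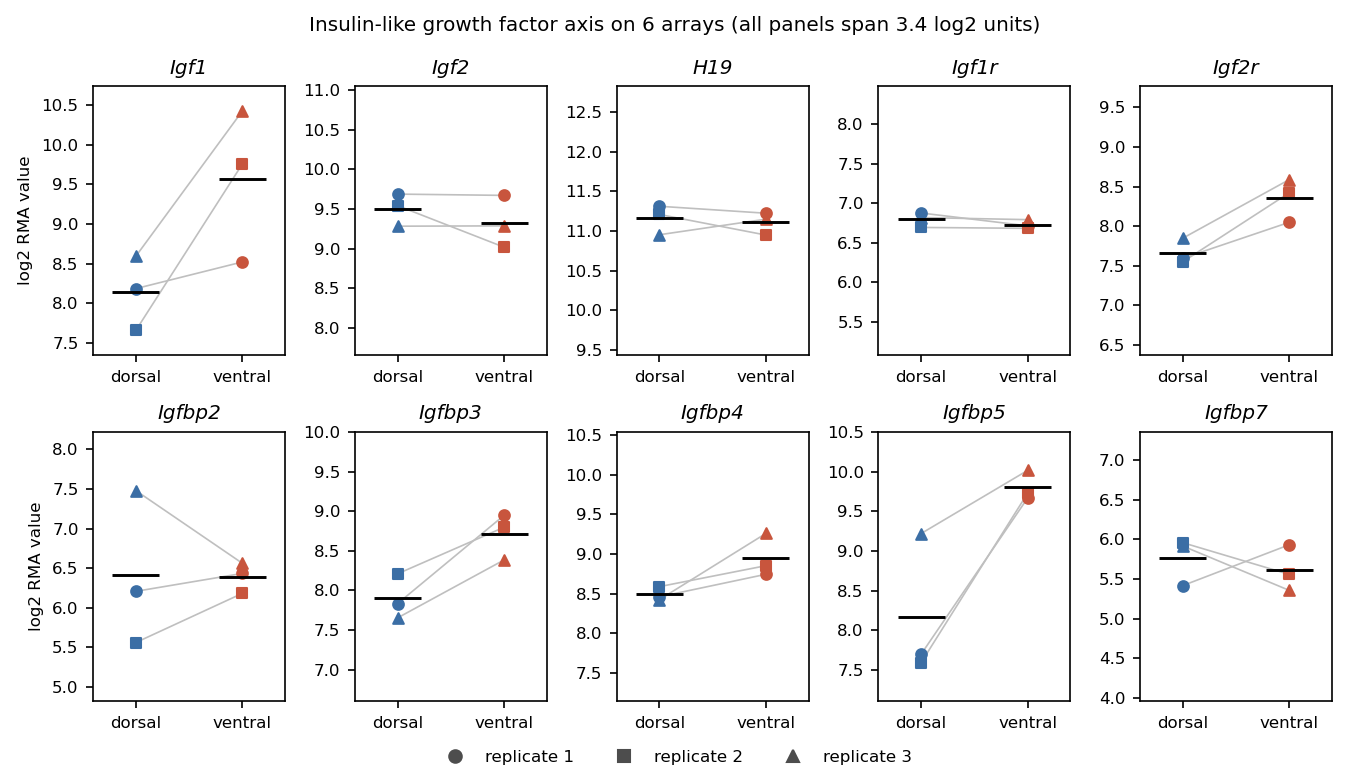
Log2 RMA value of each of the 10 members on the 3 dorsal (blue) and 3 ventral (red) arrays, with the replicate number as the marker shape, a grey line between arrays of the same number and a black bar at the tissue mean (n = 3). Igfbp5, Igfbp3, Igf2r and Igfbp4 show no overlap between the tissues, while Igf1 overlaps through ventral array 1 at 8.52 and dorsal array 3 at 8.59.

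The promoters of Igfbp3, Igfbp4 and Igfbp5 each held the letters of a TATA box, an element that can position the start of transcription. RefSeq's promoter table (GRCm38.p6) held 9 of the 10 members. The 100 bases before the start site were searched on the gene strand for 3 forms of the TATA box: TATAAA, the most common form, then the variant with the letters TATATA, and lastly the form found in Igfbp5, TATTTAA. The forms were chosen after these sequences had been seen. Of 32851 promoters in the table, 6.2% held at least 1 of them. Igfbp3, Igfbp4 and Igfbp5 each held 1, and the entries of Igf1, Igf2, Igf1r, Igf2r, Igfbp2 and Igfbp7 held none in this window. Because the forms were chosen with these sequences in view, the matches cannot be weighed against that share. A link between the matches and the tissue differences was not tested. The promoters of the 3 genes are shown with the first of 2 entries of Igfbp2, the gene next to Igfbp5, for contrast, each 5′ to 3′ on the gene strand with the match in capitals:
Igfbp5 (chr1:72874866-72874965, minus strand): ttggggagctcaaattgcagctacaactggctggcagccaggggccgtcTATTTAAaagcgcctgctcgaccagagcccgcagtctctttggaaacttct
Igfbp3 (chr11:7213924-7214023, minus strand): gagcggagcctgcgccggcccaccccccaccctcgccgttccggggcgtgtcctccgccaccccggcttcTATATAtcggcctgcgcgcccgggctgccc
Igfbp4 (chr11:99041144-99041243, plus strand): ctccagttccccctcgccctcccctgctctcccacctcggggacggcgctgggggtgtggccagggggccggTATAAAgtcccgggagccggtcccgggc
Igfbp2 (chr1:72824380-72824479, plus strand): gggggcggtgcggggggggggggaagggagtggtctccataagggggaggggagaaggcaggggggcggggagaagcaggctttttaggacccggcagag
The match began 30 bases before the listed start in Igfbp3 and 28 bases before it in Igfbp4, and 51 bases before it in Igfbp5. The GC box letters GGGCGG, on either strand, stood in 24.7% of all promoters. Among the members they stood in Igf1r, Igf2r, Igfbp7, the entry of Igfbp2 shown and 2 of the 4 entries of Igf2, and not in Igf1, Igfbp3, Igfbp4, Igfbp5, the other entry of Igfbp2 or the other entries of Igf2. A match of letters is a description of the window and not a measured site.

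Among the ligands, Igf1 differed most between the tissues. It was at 8.19, 7.66 and 8.59 on dorsal arrays 1, 2 and 3 and at 8.52, 9.76 and 10.43 on ventral arrays 1, 2 and 3. Ventral arrays 2 and 3 lay above every dorsal array, while ventral array 1 lay just below dorsal array 3. The means were 8.15 ± 0.47 (SD, n = 3) in dorsal and 9.57 ± 0.97 in ventral tissue, a 2.68-fold difference with a 95% interval of 1.50 to 4.81. The log2 fold change of 1.42 ± 0.35 (SE) had an unadjusted p of 0.00570 and an adjusted p of 0.206 in limma. The difference was 0.34 in pair 1 and 2.10 and 1.83 in pairs 2 and 3. Without replicate 1 it was 1.97 ± 0.23 and passed (adjusted p = 0.0244); over all 17 alternatives the adjusted p ran from 0.0244 to 0.597.

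Igf2, the main ligand of the embryo, had values of 9.69, 9.54 and 9.28 on dorsal arrays 1, 2 and 3 and of 9.67, 9.02 and 9.29 on ventral arrays 1, 2 and 3, so that the tissues overlapped throughout. The log2 fold change was −0.18 ± 0.19 (limma, adjusted p = 0.830), with a 95% interval from −0.65 to 0.29, or 0.639-fold to 1.22-fold. H19 was at 11.31, 11.21 and 10.95 on dorsal and 11.22, 10.95 and 11.15 on ventral arrays, a log2 fold change of −0.05 ± 0.18 (adjusted p = 0.960; 95% interval −0.49 to 0.39). The brightest probe set of an array was at 12.35 to 12.54, so H19 lay near the upper end of the scale, where arrays compress differences.

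Because Igf2 and H19 lie side by side, with no protein-coding gene listed between them, the difference of their log2 values was taken within each array. Igf2 minus H19 was −1.62, −1.67 and −1.67 on the dorsal and −1.55, −1.93 and −1.86 on the ventral arrays, and the ventral arrays lay on either side of the dorsal ones. The tissues differed by −0.13 (exact permutation test, two-sided, p = 0.4, where 3 against 3 arrays cannot go below 0.1). Igf2os, an antisense transcript of Igf2, differed by −0.10 ± 0.18 (limma, adjusted p = 0.917); whether the arrays keep its signal apart from that of Igf2 is not given in the sources used here.

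Mir483, a microRNA gene inside Igf2, was at 6.76, 7.29 and 6.86 on dorsal and 6.72, 6.51 and 6.63 on ventral arrays. The dorsal arrays were all higher, by a narrow margin, and the log2 fold change of −0.35 ± 0.21 did not pass (adjusted p = 0.641). Its mature forms, shown because this row is the microRNA carried by the Igf2 transcript, are given by RefSeq (GRCm38.p6) as follows, with the seed, bases 2 to 8, in capitals:
miR-483-5p: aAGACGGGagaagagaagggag
miR-483-3p: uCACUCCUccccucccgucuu
The arms have different seeds. An array of amplified total RNA does not tell the mature forms from the host transcript.

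The receptors differed from each other. Igf1r, the signalling receptor, was at 6.88, 6.69 and 6.82 on dorsal and 6.71, 6.68 and 6.79 on ventral arrays. All 6 values lay within a narrow span, and the log2 fold change was −0.07 ± 0.17 (adjusted p = 0.941) with a 95% interval from −0.48 to 0.34. Igf2r, the clearance receptor for IGF2, was at 7.59, 7.55 and 7.85 on dorsal and 8.05, 8.42 and 8.59 on ventral arrays. Every ventral array was above every dorsal array, with means of 7.66 ± 0.16 and 8.35 ± 0.28. The difference was 1.61-fold (95% interval 1.19 to 2.18; log2 fold change 0.69 ± 0.18, unadjusted p = 0.00792, adjusted p = 0.231). It stayed between 0.57 and 0.84 over all 17 alternatives and passed in 0 of them (adjusted p 0.143 to 0.537). The difference between the receptors was not tested.

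Igfbp5, which binds matrix and is a common product of mesenchyme and muscle precursors, had the greatest difference of the 10 members. Dorsal arrays 1, 2 and 3 were at 7.70, 7.59 and 9.22, and ventral arrays 1, 2 and 3 at 9.67, 9.73 and 10.02. The ventral arrays were tightly grouped and all above the dorsal arrays, of which array 3 stood far above the other two. The means were 8.17 ± 0.91 in dorsal and 9.81 ± 0.19 in ventral tissue, a 3.11-fold difference (95% interval 1.92 to 5.04). The log2 fold change was 1.64 ± 0.29, with an unadjusted p of 0.00105 and an adjusted p of 0.0972 in limma. This call turned on replicate 3: without that pair the log2 fold change was 2.06 ± 0.23 (adjusted p = 0.0364), and without dorsal array 3 alone, and without the block, 2.16 ± 0.19 (adjusted p = 0.0131). With an intensity trend in the fit Igfbp5 also passed (adjusted p = 0.0474). Over all 17 alternatives the adjusted p ran from 0.0131 to 0.478.

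Igfbp2, the neighbour of Igfbp5 with no gene listed between them, showed no such difference over the 3 pairs. It was at 6.21, 5.56 and 7.48 on dorsal and 6.43, 6.18 and 6.56 on ventral arrays. Dorsal array 3 was the highest of the 6 here too, and the other dorsal arrays overlapped with or lay below the ventral ones. The log2 fold change of −0.02 ± 0.31 (adjusted p = 0.989; 95% interval −0.77 to 0.72) became 0.42 ± 0.24 without replicate 3 (adjusted p = 0.681) and 0.51 ± 0.25 without dorsal array 3 and without the block (adjusted p = 0.609).

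Igfbp3, the main carrier of IGFs in serum, was at 7.83, 8.21 and 7.65 on dorsal and 8.95, 8.80 and 8.38 on ventral arrays. The tissues did not overlap, with means of 7.90 ± 0.28 and 8.71 ± 0.29. The difference was 1.76-fold (95% interval 1.28 to 2.41; log2 fold change 0.81 ± 0.19, unadjusted p = 0.00445, adjusted p = 0.185). It lay between 0.66 and 0.97 over all 17 alternatives, with adjusted p from 0.0934 to 0.502.

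Igfbp4, an inhibitor of IGF action that PAPP-A cleaves, was at 8.46, 8.59 and 8.42 on dorsal and 8.74, 8.85 and 9.26 on ventral arrays. The tissues did not overlap, but the gap between dorsal array 2 and ventral array 1 was small. The log2 fold change of 0.46 ± 0.20 (1.38-fold) had an adjusted p of 0.477. Igfbp7, which binds IGFs only weakly and is a product of vessel walls, was at 5.42, 5.96 and 5.92 on dorsal and 5.93, 5.56 and 5.36 on ventral arrays. Its tissues overlapped, its pairs differed in sign (0.52, −0.40 and −0.56), and the log2 fold change was −0.15 ± 0.25 (adjusted p = 0.899).

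**Figure D2:**
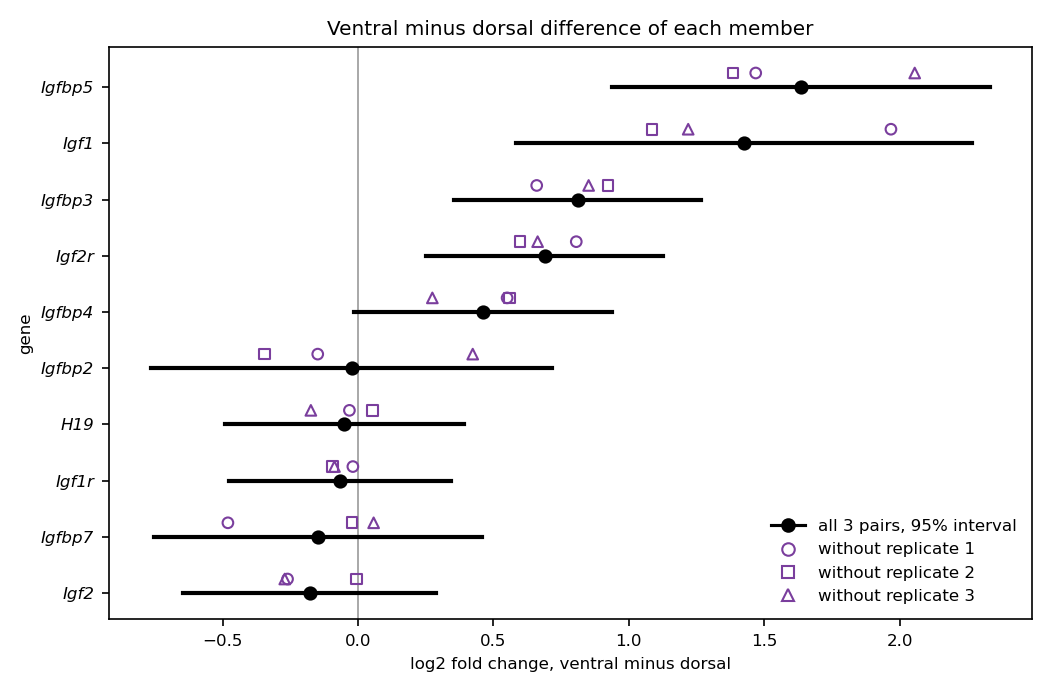
Log2 fold change, ventral minus dorsal, of each member with its 95% interval from limma (black, 3 pairs), and the value without each replicate pair in turn (open purple markers). The intervals of Igfbp5, Igf1, Igfbp3 and Igf2r lie above 0 before adjustment, and those of the other 6 members include 0.

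Further genes of the pathway came from a list of 68, written with earlier results of these data known. Of the list, 60 were named in the platform table and 48 were bright enough to be tested. In limma 0 of the 48 passed over all genes. At an unadjusted p of 0.05, 3 of the 48 were higher in ventral and 4 in dorsal tissue, against 5.60% and 5.14% of all genes tested. The arrays did not overlap for 13 of the 48, 6 higher in ventral and 7 in dorsal tissue, where 15.4% of all genes tested did not overlap in either direction. The median difference of the 48 was 0.05.

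Proteases that cut binding proteins, grouped with regulators, held the greatest differences on the list. All 4 genes of this group that were tested had positive values (median 0.86). Adam12, a metalloprotease that cleaves IGFBP3 and IGFBP5, was at 5.55, 5.56 and 5.54 on dorsal and 6.57, 7.90 and 8.02 on ventral arrays. The dorsal arrays were almost identical and every ventral array was above them (log2 fold change 1.94 ± 0.31, unadjusted p = 0.000589, adjusted p = 0.0723). Adam12 passed without replicate 1 (adjusted p = 0.0144), without the block and without ventral array 1 (0.00350), with the filter at the 75th percentile (0.0453) and with an intensity trend (0.0492).

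Pappa, which encodes PAPP-A, the protease of IGFBP4 and IGFBP5, was at 4.79, 4.39 and 5.32 on dorsal and 5.15, 6.07 and 6.76 on ventral arrays. Its tissues overlapped through ventral array 1, as those of Igf1 did, and its log2 fold change was 1.16 ± 0.28 (adjusted p = 0.204). Ctsd, a lysosomal protease that binds the mannose-6-phosphate receptor, differed by 0.57 ± 0.22 (adjusted p = 0.441), and Htra3, a secreted serine protease, by 0.12 ± 0.28 (adjusted p = 0.938). Pappa2, Stc1, Stc2 and Htra1 were below the brightness filter and were not tested. Their differences were −0.43, 0.02, −0.33 and 0.74, so the group as listed was not of 1 direction. Pappa and Ctsd, like Igf2os, Mir483, Plagl1, Akt1, Irs2, Pik3ca, Pik3cb, Pik3r1 and Pik3r3 elsewhere in this section, were picked after their values were seen.

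Downstream of the receptor, 29 adaptor and signalling genes were tested, 17 with positive and 12 with negative differences, and a median of 0.05. Irs1, the insulin receptor substrate that couples IGF1R to PI3 kinase, had the lowest value. It was at 7.28, 6.85 and 7.11 on dorsal and 6.58, 5.77 and 5.42 on ventral arrays, so that the tissues did not overlap. Its level was 2.23-fold higher in dorsal tissue (log2 fold change −1.16 ± 0.23, unadjusted p = 0.00215, adjusted p = 0.132), and it passed without the block and without ventral array 1 (adjusted p = 0.0341). Irs2, a related substrate, differed by −0.43 ± 0.18 (adjusted p = 0.464).

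The values of PI3 kinase subunits differed from gene to gene. The catalytic subunit gene Pik3cb was at 5.82, 5.73 and 5.93 on dorsal and 4.97, 4.47 and 4.94 on ventral arrays, with no overlap (log2 fold change −1.03 ± 0.18, adjusted p = 0.0948). The regulatory subunit gene Pik3r3 was at 8.33, 8.32 and 8.39 on dorsal and 7.02, 7.50 and 7.76 on ventral arrays, again with no overlap (−0.92 ± 0.20, adjusted p = 0.163). By contrast Pik3ca differed by −0.05 ± 0.18, Pik3r1 by 0.38 ± 0.21 and Akt1 by 0.16 ± 0.19 (adjusted p 0.956, 0.614 and 0.849). Grb10, an imprinted adaptor that restrains IGF and insulin receptors, had the highest value of these 29 genes (0.42 ± 0.22, adjusted p = 0.567).

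In the remaining groups no gene passed either. Among other binding proteins, Igfbp1 differed by 0.26 ± 0.17 (adjusted p = 0.663) and Vtn, which encodes the matrix and serum protein vitronectin, by −0.20 ± 0.20 (adjusted p = 0.810), while Igfbp6, Igfals and Igfbpl1 were below the filter. Among related receptors the highest and lowest values were those of the growth hormone receptor Ghr (0.34 ± 0.32, adjusted p = 0.799) and the insulin receptor Insr (0.04 ± 0.18, adjusted p = 0.968). The RNA-binding proteins Igf2bp1 and Igf2bp3, which bind Igf2 transcripts, differed by −0.35 ± 0.19 (adjusted p = 0.602) and 0.14 ± 0.24 (adjusted p = 0.901). Near the Igf2 locus, Lsp1 had the highest value (0.39 ± 0.28, adjusted p = 0.705) and Th, the tyrosine hydroxylase gene of sympathetic neurons, the lowest (−0.72 ± 0.61, adjusted p = 0.763). Plagl1, an imprinted zinc finger gene known to act on the locus, differed by −0.33 ± 0.17 (adjusted p = 0.562), with all 3 pairs negative.

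**Figure D3:**
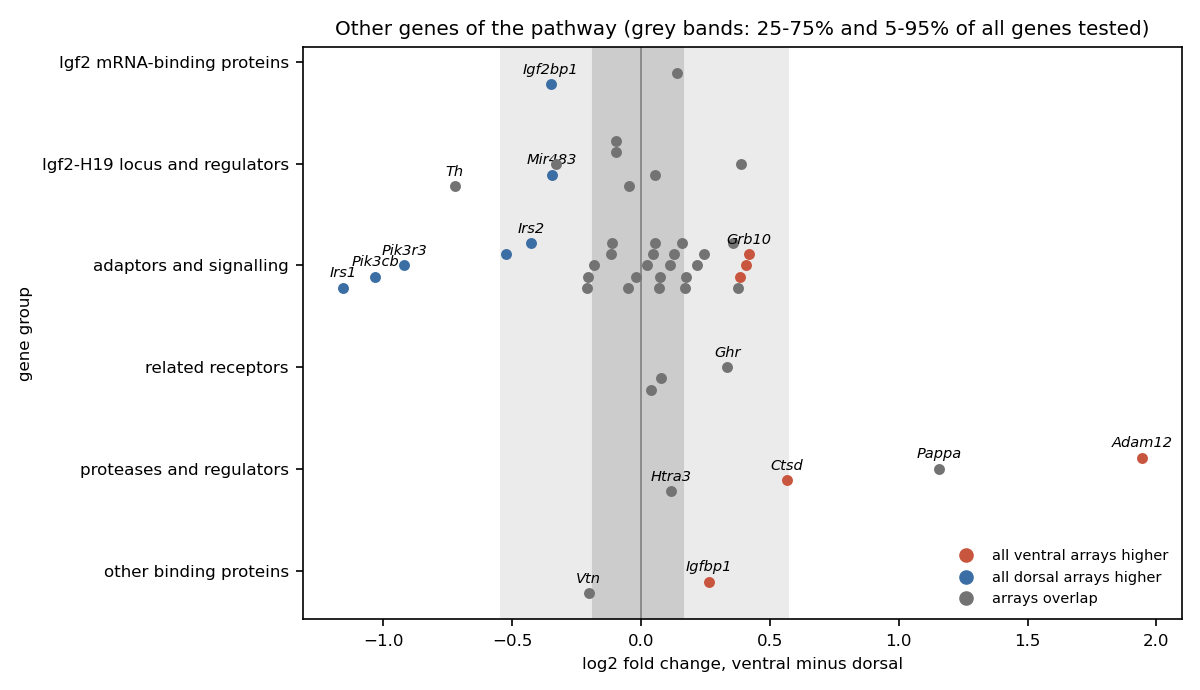
Log2 fold change, ventral minus dorsal, of the 48 other pathway genes tested, by group; colour marks whether all ventral arrays (red) or all dorsal arrays (blue) were higher or the tissues overlapped (grey). The bands hold the middle 50% and 90% of all genes tested (−0.19 to 0.16 and −0.54 to 0.57); Adam12 and Pappa lie to the right of the wider band, and Irs1, Pik3cb, Pik3r3 and Th to its left.

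Genes whose pattern was most like that of 3 members were found by Pearson correlation over the 6 arrays among all genes tested. The arrays share their tissue and replicate number, so these are descriptions. Igf1 was most like Cdh7 (r = 0.997), Pappa (0.996) and Bmt2 (0.994). Of these, Pappa had the greatest difference between tissues (1.16), beside 0.51 for Cdh7 and 0.43 for Bmt2. Igf2 was most like Selenon (0.996), Rps23 (0.988) and Pla2g2e (0.982), with differences of −0.26, −0.34 and −0.06. Igfbp5 was most like Rpp25 (0.989), Tkt (0.988) and Adgrl2 (0.982), with differences of 0.54, 0.21 and 1.02.

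Marker lists were used to describe what else the pieces of tissue held. Sclerotome and cartilage markers averaged 6.33 to 7.06 on dorsal and 5.08 to 5.25 on ventral arrays (8 of 8 named). Of those tested, 6 had negative differences and Foxc2 a positive one (0.22), while Acan was below the brightness filter. Markers of coelomic epithelium and gonadal ridge averaged 4.32 to 4.56 on dorsal and 5.58 to 6.20 on ventral arrays (7 of 7 named). The 5 tested had positive differences, the largest that of Tcf21 (4.70). The gonadal ridge marker Nr5a1 and the marker Msln were below the filter, with differences of 0.18 and −0.02. The notochord markers Noto and Foxa2 were below the brightness filter, as were all 5 mesonephros markers. Shh, the other notochord marker named, was tested and lay near the filter level. It was at 4.65, 5.18 and 4.47 on dorsal and 4.54, 4.18 and 4.49 on ventral arrays (log2 fold change −0.36 ± 0.25, adjusted p = 0.686 in limma). Smooth muscle and pericyte markers averaged 5.44 to 6.34 on dorsal and 7.87, 6.95 and 6.38 on ventral arrays 1, 2 and 3. Ventral array 1, the highest for these markers, was the ventral array with the lowest Igf1, Igf2r, Igfbp4, Igfbp5, Adam12 and Pappa and the highest Igf2, H19, Igfbp3 and Igfbp7; whether these go together was not tested.

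Blood and vessel markers differed between the tissues too. Erythroid markers, 6 of 8 named, averaged 8.23 to 8.38 on dorsal and 7.55 to 7.99 on ventral arrays, and all 6 had negative differences (median −0.45). Macrophage markers, 5 of 6 named, averaged 5.22 to 5.79 on dorsal and 5.80 to 6.01 on ventral arrays, and all 5 had positive differences (median 0.36). Endothelial markers averaged 5.28 to 6.01 on dorsal and 5.93 to 6.24 on ventral arrays, with positive differences for 7 of 8 (median 0.56). In limma 0 genes of these 3 lists passed over all genes. At an unadjusted p of 0.05, 3 erythroid markers were higher in dorsal tissue, against 5.14% of all genes tested. In ventral tissue 1 macrophage and 3 endothelial markers were higher at this level, against 5.60%. Myotome markers averaged 4.36 to 4.82 on dorsal and 4.54 to 5.13 on ventral arrays, but they differed in direction. Des (1.12), Actc1 (0.80) and Myf5 (0.46) had positive differences and Myog a negative one (−0.07). Myod1 (−0.21) and Myh3 (−0.35) were below the brightness filter. The part of any listed cell type in the higher ventral values of Igf1, Igf2r, Igfbp3, Igfbp4 and Igfbp5 was not tested.

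Replicate 3 stood apart in both tissues. Hepatocyte markers, 7 of 8 named, averaged 7.80 on dorsal and 8.61 on ventral array 3 and 3.98 to 4.50 on the other 4 arrays, and all 7 were higher on both replicate 3 arrays than on the rest. Afp, the fetal liver protein alpha-fetoprotein, was at 10.99 and 11.63 there and at 3.64 to 4.82 elsewhere. Of the members, 4 were highest within both tissues on replicate 3: Igf1 (8.59 and 10.43), Igf2r (7.85 and 8.59), Igfbp5 (9.22 and 10.02) and Igfbp2 (7.48 and 6.56). Igf2 and H19 were lowest on array 3 among the dorsal arrays and in the middle among the ventral arrays. Vtn was higher on both replicate 3 arrays (5.50 and 5.38) than on the rest (4.18 to 4.77). The part of liver cells in these values was not tested; without replicate 3 the differences of Igf1 and Igf2r were 1.22 ± 0.42 (adjusted p = 0.441) and 0.66 ± 0.24 (adjusted p = 0.478).

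Neural genes were higher on dorsal array 3 than on the other arrays. A list of 14 markers of neural progenitors and neurons, written after the values were seen, had 13 named. All 13 were highest on dorsal array 3, with a mean of 7.44 there and 4.80 to 5.33 on the other 5 arrays. The neural stem cell factor Sox2 was at 9.69, against 4.59 to 6.50 elsewhere. Some neural markers were bright on other arrays too. Tubb3 was at 8.83, 9.27 and 9.99 on dorsal and at 8.26 to 8.55 on ventral arrays. Stmn2 was at 7.64, 7.63 and 7.85 on dorsal and at 5.35 to 7.27 on ventral arrays. On dorsal array 3 lay the highest dorsal values of Igf1, Igf2r, Igfbp5 and Igfbp2, given above. It also held the highest of all values of Igfbpl1, an IGFBP-related gene of neural progenitors (5.71, against 3.69 to 4.30). The part of these cells in the values of these members was not tested; the difference of Igfbp5 was larger without this array, as given with that gene.

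**Figure D4:**
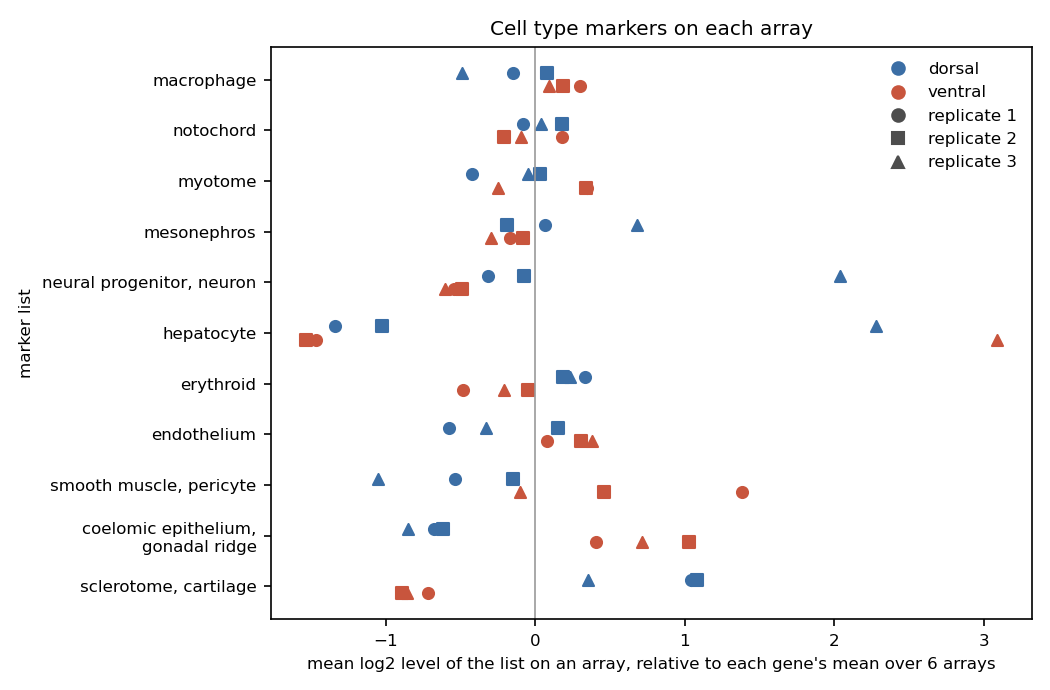
Mean log2 level of each marker list on each array, after subtracting the mean of each gene over the 6 arrays, for dorsal (blue) and ventral (red) arrays with the replicate number as the marker shape. Hepatocyte markers are high on both replicate 3 arrays, and neural markers are highest on dorsal array 3.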

How the data were processed

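The deposited values are log2 levels per probe set and array, made by the authors with Affymetrix Expression Console and RMA, per the submitters' processing notes; RMA corrects background, quantile-normalizes arrays and summarises probes. Their versions, the probe grouping and the build used are not stated in these sources. RNA had been amplified with the Ovation Pico kit, per the labels' protocols, which can distort ratios of weak to strong transcripts. Gene symbols came from the platform table. Array medians were 4.49 to 4.55.

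Ventral minus dorsal was fitted over all 6 arrays in R 4.3.3 with limma 3.58.1 (lmFit, eBayes without trend, two-sided, Benjamini-Hochberg), on named probe sets with a mean at or above the median of all (4.52). The replicate number was a block because the labels place both tissues in the same embryos, without saying that a number marks an embryo. After subtraction of tissue means, arrays with the same number correlated by 0.0992, 0.0763 and 0.226, and other dorsal-ventral pairs by −0.153 to 0.0805, so the pairing has weak support. The fit was also run on simulated data with large known changes and no shared replicate effect. That run does not bear on the replicate block or on smaller differences. Standard errors and 95% intervals are those of the moderated fit; SD is over 3 arrays. RefSeq tables gave promoters, microRNAs and gene neighbours by symbol.

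The named genes were all 10 members, any pathway gene past the threshold, and in each pathway group the tested gene with the highest and the lowest difference; for Igf1, Igf2 and the members with the highest and lowest difference, the 3 genes of most similar pattern were named, without predicted genes, clones and small RNAs. Further genes named with values were picked after these were seen. Members and lists were chosen with earlier results of these data known. The alternatives were 11 set beforehand, and 6 added after seeing the data, which leave out 1 array each without the block.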

Additional observations from a re-analysis of the deposited data

How the results depend on the processing

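None of the 10 members passed without the block, with the replicate number as a random effect, without replicate 2, without the brightness filter, with the filter at the 75th percentile (where 9 were tested), after a shift to 1 median, after cyclic loess or with robust eBayes. In limma 1 passed without replicate 1 (Igf1), 1 without replicate 3 (Igfbp5) and 1 with an intensity trend (Igfbp5), and of the fits that leave out 1 array without the block only the one without dorsal array 3 had a call (Igfbp5), so that leaving out arrays gave 0 to 1. Members at an unadjusted p of 0.05 numbered 3 to 5 over all alternatives, where 8.1% to 11.9% of all genes tested were at this level. Of the other pathway genes 0 passed without the block, 1 with the filter at the 75th percentile and 1 with a trend (Adam12 in each), and 0 to 2 when arrays were left out. Over all genes 62 passed with and 59 without the replicate block, 45 of them shared; 10 passed without the filter, 94 with a trend and 42 to 83 without 1 pair. Without the block and without 1 array, 12, 22 and 39 passed when dorsal array 1, 2 or 3 was left out, and 107, 12 and 15 when ventral array 1, 2 or 3 was.

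Igf1, Igf2, Igf1r, Igf2r, Igfbp3, Igfbp4 and Igfbp5 kept their sign under all 17 alternatives. Other genes changed sign when a pair was left out, as log2 differences: H19 ran from −0.17 to 0.055, Igfbp2 from −0.35 to 0.42, Igfbp7 from −0.48 to 0.058, Insr from −0.025 to 0.14, Ghr from −0.13 to 0.69, Htra3 from −0.27 to 0.40, Igf2bp3 from −0.17 to 0.31 and Th from −1.71 to 0.076. So did some when 1 array was left out without the block. Without dorsal array 1 H19 was at 0.027 and Insr at −0.038; without dorsal array 2 Igf2bp3 was at −0.13, Htra3 at −0.0089 and Insr at −0.0016; without dorsal array 3 Igfbp2 was at 0.51 and Vtn at 0.092. Without ventral array 1 Htra3 was at −0.32; without ventral array 2 H19 was at 0.029, Igfbp2 at 0.081 and Vtn at 0.064; without ventral array 3 Insr was at −0.12. Igf2 minus H19 stayed between −0.23 and −0.06 without 1 pair and between −0.24 (without ventral array 1) and −0.05 (without ventral array 2) without 1 array (exact permutation p from 0.1 to 1; 0.5 with sign flips within pairs as the replicate block, where 0.25 is the lowest possible). The cause of these changes was not tested. Arrays compress differences near background and near the top of the scale, which can touch Igfbp7 and H19.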

Other observations

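Genes at least 2 (log2) above every other array numbered 27 on dorsal array 3 and 21 on ventral array 1, against 5 to 9 on the other 4 arrays, and 18 were that far above the rest on both replicate 3 arrays. Emx2, a homeobox gene of forebrain and urogenital tissue, was at 7.98 on dorsal array 3 and at 3.23 to 5.01 elsewhere, while Pax2, Pax8 and Lhx1, which define mesonephric tubules, stayed at 2.49 to 4.01 on all 6 arrays. Insrr, a receptor related to the insulin receptor, lay below the brightness filter, with 2.67 to 2.75 on dorsal and 3.09 to 3.26 on ventral arrays.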
